A study of Mus musculus with 30 samples.

Results

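RNA from whole brains of 45-day-old mice labelled Csa-/- was set against RNA from whole brains of wild-type mice of the same age. The comparison uses 10 of the 30 columns of the series, which were chosen by their labelled genotype and age, 5 for each genotype. The remaining columns hold the same genotypes at 12 and 24 months and appear here only beside the 45-day values. All animals were kept in cycles of equal light and dark with free access to food, and the frozen brains were ground whole before extraction. Strain, sex, the number of animals behind a library, the mutant allele and any promoter or tissue limit of it were not given in the sources used here.

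Csa is the older name of Ercc8. Its product is the substrate-binding subunit of a ubiquitin ligase that works with CSB, the product of Ercc6, at RNA polymerase II stalled on damaged DNA, and so starts transcription-coupled nucleotide excision repair. Loss of either protein causes Cockayne syndrome, in which growth fails and the nervous system, its myelin and its vessels degenerate. The series title names MAPK and PI3K-Akt signalling, the extracellular matrix, inflammation and neuronal signalling as its subjects, and the lists below follow these subjects by the roles of their genes.

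The 5 columns of each genotype are repeat sequencing runs by their labels, and they differed little more than counting error. Between runs, the chi-square of a gene per degree of freedom had a median of 0.985 in wild type and 0.989 in Csa-/-, and the coefficient of variation between runs was 0.0247 and 0.0322. The runs were therefore summed to 1 library per genotype, with 21155348 counts in wild type and 14762512 in Csa-/-. Levels are CPM, that is counts relative to library totals corrected by TMM scaling factors, and 3 counts, taken as the floor, were 0.143 and 0.201 CPM. A fold is the level in the Csa-/- library over that in wild type, with an exact 95% counting interval. A gene is called higher or lower when the library with more of it held at least 5 CPM and the whole interval was past 1.5-fold. With 1 library per genotype the differences have no replicate check. They compare these libraries, not the genotypes, and the intervals cover counting error only. In whole brain, fewer cells of a type and less RNA per cell cannot be told apart.

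Ercc8 itself (mm10, chromosome 13, 108158731 to 108195364) did not separate the genotypes. It stood at 13.5 CPM in wild type and 13.9 CPM in Csa-/-, a fold of 1.03 (0.854 to 1.23), and counts over the whole gene cannot show whether a functional transcript was made. Its partner Ercc6 stood at 38.6 and 33.0 CPM (fold 0.856, 0.764 to 0.959) and was not called. The genotype is therefore taken from the label. Xist, the noncoding RNA of the inactive X chromosome, stood at or under 0.688 CPM in all 6 libraries of the series, and the Y-linked Ddx3y stood at 86.8 CPM in wild type and 109 CPM in Csa-/- at 45 days. The brain label was borne by the markers: all 12 neuronal, all 12 astrocytic and all 14 oligodendrocytic markers reached 5 CPM, with the synaptic vesicle fusion gene Snap25 at 2861 and 3842 CPM.

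Of 12500 genes with at least 5 CPM, 1648 (13.2%) were called, 981 higher (7.85%) and 667 lower (5.34%) in Csa-/-. The median log2 fold of these 12500 genes was -0.00. TMM scaling draws this value toward 0, so it cannot show whether a common shift existed. The fold was not independent of the make-up of the transcript. Among the shortest 10% of genes, with at most 1967 exonic bases, the median log2 fold was 0.43, and 25.8% were called higher against 1.87% lower. Among the longest 10%, from 10444 bases, it was -0.28, with 1.22% higher and 13.4% lower. GC content gave a like gradient, with a median of 0.34 in the lowest 10% and -0.28 in the highest. The same genotype contrast at 24 months ran the other way over length, with -0.55 in the shortest and 0.47 in the longest 10%. Over GC content it ran the same way at 24 months, with 0.50 in the lowest and -0.45 in the highest 10%. At 12 months it ran the other way over GC content (-0.30 and 0.22). When a smooth trend over exonic length and GC content was removed, 753 genes were called (6.02%), 431 higher (3.45%) and 322 lower (2.58%), and 558 of them were among the 1648. Values with this trend removed are therefore given beside the lists below. What gave rise to the trend was not tested.

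**Figure D1:**
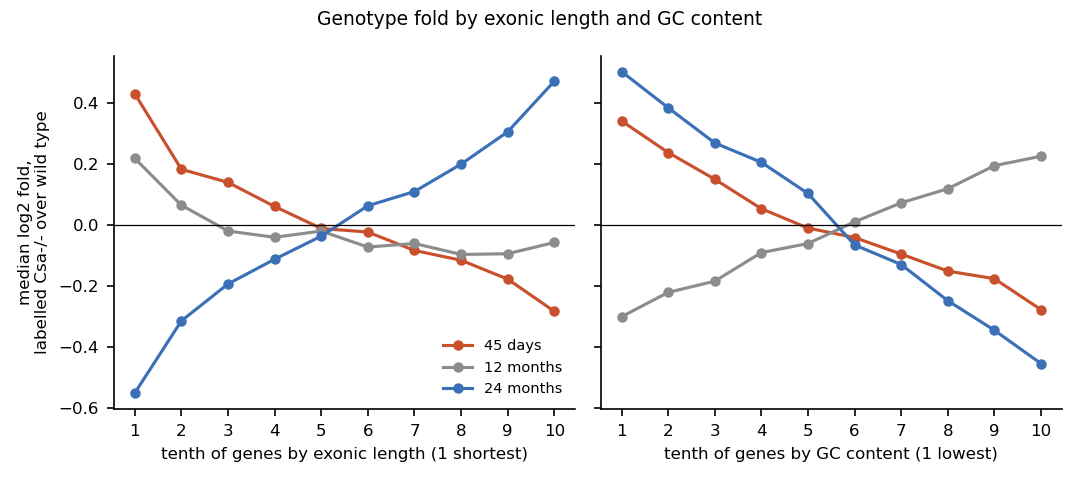
Median log2 fold of Csa-/- over wild type (vertical axis) in 10 equal groups of genes by exonic length (left) and by GC content (right), at 45 days (red), 12 months (grey) and 24 months (blue). At 45 days the median fell from 0.43 in the shortest to -0.28 in the longest group, while at 24 months it ran from -0.55 to 0.47.

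Sgk1 had the largest fold of the genes called higher under the naming rule. It encodes the serum- and glucocorticoid-regulated kinase, which acts beside Akt downstream of PI3K (chromosome 10, 21882184 to 21999903, plus strand). The 5 wild-type runs gave 69.1, 71.9, 67.1, 66.8 and 65.3 CPM, and the 5 Csa-/- runs gave 374, 430, 411, 353 and 419 CPM. Every Csa-/- run lay above every wild-type run, and the fold of the summed libraries was 5.83 (5.51 to 6.19). Cartpt, which encodes an appetite-suppressing neuropeptide, followed at 11.0 against 63.8 CPM (5.79-fold, 5.01 to 6.72). Hif3a, a hypoxia-inducible factor subunit that glucocorticoids also induce, stood at 3.71 against 19.3 CPM (5.20-fold, 4.04 to 6.77). Among the next were Tm2d1, a membrane protein gene (31.0 against 156 CPM, 5.03-fold), Ndufb4, a subunit of respiratory complex I (2.47 against 11.9 CPM, 4.81-fold), Atp5g2, a subunit of the ATP synthase (9.17 against 37.5 CPM, 4.09-fold), and Eomes, a T-box transcription factor (2.95 against 12.0 CPM, 4.08-fold). The folds of Sgk1, Hif3a, Atp5g2 and Eomes hardly moved with the length and GC trend removed (5.78, 6.07, 4.28 and 4.48), and that of Tm2d1 was 2.74.

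Among the genes called lower, several encode surface and matrix proteins with long transcripts. Itgb8, the integrin subunit that activates latent TGF-beta (chromosome 12, 119158022 to 119238802, minus strand), gave 29.9 to 44.6 CPM in the wild-type runs and 6.73 to 8.56 CPM in the Csa-/- runs. The summed libraries stood at 36.6 and 7.72 CPM, a fold of 0.211 (0.172 to 0.257), and the fold was 0.203 with the trend removed. Nptxr, a receptor of neuronal pentraxins at synapses, had 11.4 against 2.48 CPM (0.219-fold, 0.150 to 0.310). Cspg4, the NG2 proteoglycan of oligodendrocyte precursors and pericytes, had 25.5 against 7.05 CPM (0.277-fold). The lipid transporter gene Abca4 (0.286-fold), the xylosyltransferase gene Xylt1, which starts glycosaminoglycan chains on proteoglycans (0.296-fold), and the protocadherin gene Pcdhgc5 (0.273-fold) were lower too. Pcdhgc5 shares its constant exons with the other genes of its cluster, so its count is uncertain. Alb, the serum albumin gene, stood at 25.1 against 6.04 CPM (0.241-fold, 0.190 to 0.302) at 45 days and at no more than 1.98 CPM in any library of 12 or 24 months. The pseudogene Tmem181b-ps, named after its values were seen, separated the genotypes at every age, with 43.9 against 0.537 CPM at 45 days, 56.0 against 0.477 CPM at 12 months and 34.0 against 0.476 CPM at 24 months, and it may share reads with related copies. Whether the genotypes also differ in strain background was not tested.

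**Figure D2:**
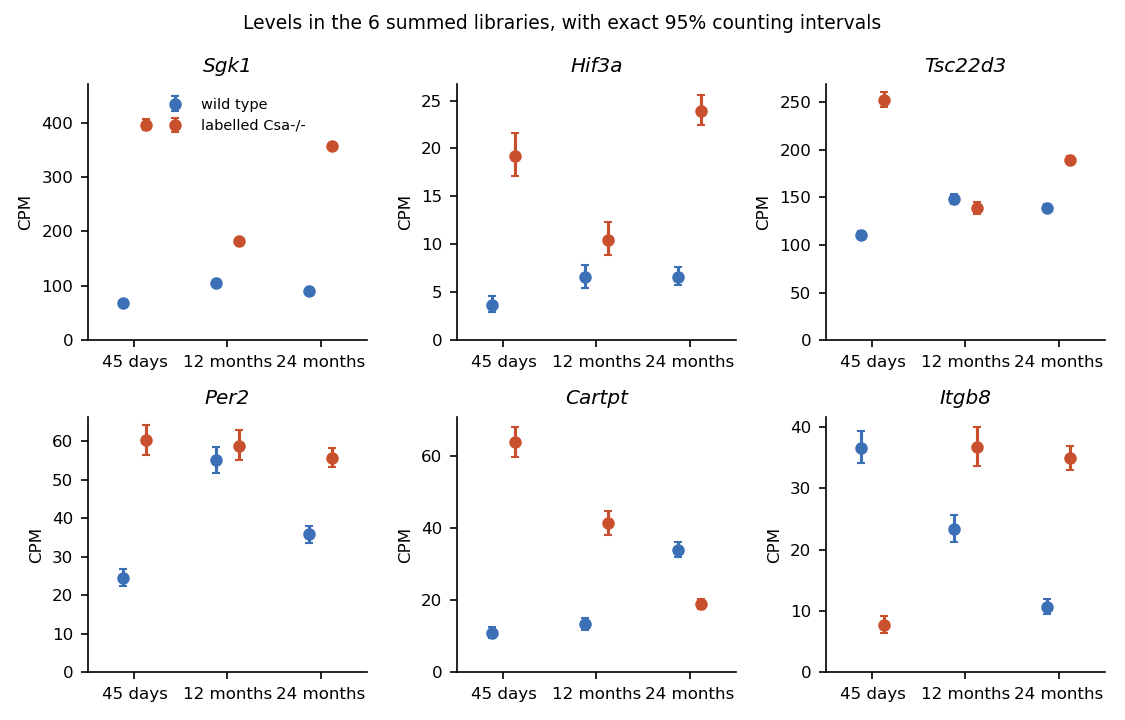
Levels in CPM (vertical axes) of 6 genes in the 6 summed libraries at 45 days, 12 months and 24 months, wild type in blue and Csa-/- in red, with exact 95% counting intervals as bars. At 45 days Sgk1, Hif3a, Tsc22d3, Per2 and Cartpt lie higher in Csa-/- and Itgb8 lower (36.6 against 7.72 CPM), and Cartpt and Itgb8 are the other way round at 24 months, Itgb8 at 12 months too.

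Genes that glucocorticoids induce were higher as a group. Corticosterone, the main glucocorticoid of the mouse, binds the receptors encoded by Nr3c1 and Nr3c2, which move to the nucleus and bind response elements in DNA. Of 30 genes of the list, 29 reached 5 CPM, 9 of these (31.0%, against 7.85% of all genes) were called higher and 0 lower, and the median log2 fold was 0.48, or 0.45 with the length and GC trend removed, when 8 were called higher and 0 lower. In all, 27 of 30 folds were above 1. The list was chosen with earlier results of these data known, Sgk1 among them.

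Transcription regulators of the response were among the 9 genes called higher. Tsc22d3, which encodes the anti-inflammatory protein GILZ, gave 107 to 115 CPM in the wild-type runs and 238 to 262 CPM in the Csa-/- runs, with no overlap, and its fold was 2.29 (2.18 to 2.41). Klf9, a zinc-finger factor induced by glucocorticoid and thyroid hormone, stood at 215 against 336 CPM (1.56-fold, 1.5 to 1.63). The metallothionein genes, whose products bind zinc and copper, were higher as well, Mt2 at 70.6 against 179 CPM (2.53-fold, 2.38 to 2.7) and Mt1 at 90.3 against 174 CPM (1.92-fold, 1.81 to 2.04). Plekhf1, a lysosomal adaptor gene, had 4.04 against 11.5 CPM (2.86-fold), the sulfotransferase gene Sult1a1 6.70 against 13.2 CPM (1.96-fold), and Arrdc3, an arrestin-like adaptor gene, 73.5 against 118 CPM (1.61-fold). With the trend removed, the folds of Mt1 (1.44), Klf9 (1.49), Sult1a1 (1.34) and Arrdc3 (1.32) were no longer called, while those of Per1 (1.90), Arrdc2 (2.02) and Plin4 (2.37) were.

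Other targets did not pass. Fkbp5, the co-chaperone that dampens the glucocorticoid receptor, stood at 31.1 against 40.3 CPM (fold 1.30, 1.16 to 1.45). The period gene Per1 had 70.9 against 98.6 CPM (1.39, 1.29 to 1.5), Klf15 33.2 against 54.8 CPM (1.65, 1.49 to 1.83), and Fam107a 561 against 821 CPM (1.46, 1.43 to 1.5). Zbtb16 (1.04), Pdk4 (0.938) and Angptl4 (1.01), each a target of the receptor in many tissues, had folds whose intervals held 1. The receptor genes themselves stood lower without a call, Nr3c1 at 148 against 125 CPM (0.841) and the mineralocorticoid receptor gene Nr3c2 at 63.0 against 46.2 CPM (0.734). At 12 and 24 months the list's median log2 fold was 0.18 and 0.44, and Sgk1 was called higher there too (1.73- and 3.91-fold).

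**Figure D3:**
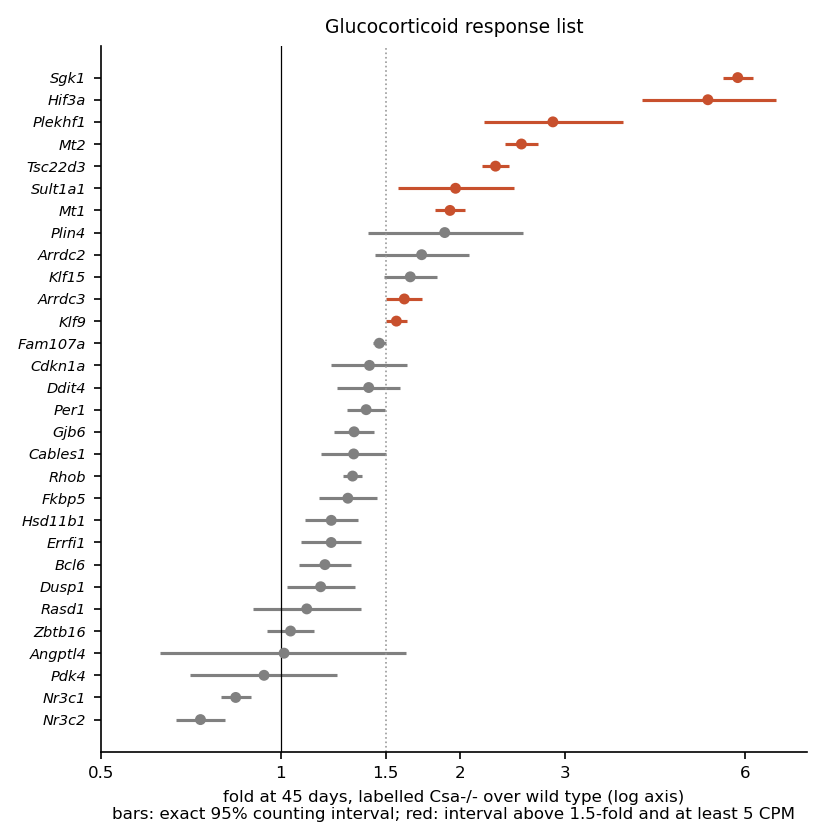
Fold at 45 days (horizontal log axis) for the 30 genes of the glucocorticoid list, with exact 95% counting intervals as bars, called genes in red and others in grey. Of the 30 genes, 27 lie right of 1, from Sgk1 at 5.83 down to Nr3c2 at 0.734.

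The promoter windows of 25 of the 30 genes were found in the RefSeq table for GRCm38.p6, each running from 250 bases before to 50 bases after a transcript start. A palindromic glucocorticoid response element, 2 inverted arms with the second base of each arm and the 3 bases between them left free, was searched on both strands and found in 3 of the 25 (Sgk1, Mt1 and Fam107a), and in 0.537% of 27025 genes with a window. The windows of Sgk1, present in 1 of 6 start windows of this gene, and of Mt1 are shown because both genes were called higher. The element is in capitals and begins at position -188 in Sgk1 (chr10:21993640-21993939, plus strand) and at -94 in Mt1 (chr8:94178839-94179138, plus strand), counted from the start. A match of letters is a description and not evidence of binding.
Sgk1 promoter: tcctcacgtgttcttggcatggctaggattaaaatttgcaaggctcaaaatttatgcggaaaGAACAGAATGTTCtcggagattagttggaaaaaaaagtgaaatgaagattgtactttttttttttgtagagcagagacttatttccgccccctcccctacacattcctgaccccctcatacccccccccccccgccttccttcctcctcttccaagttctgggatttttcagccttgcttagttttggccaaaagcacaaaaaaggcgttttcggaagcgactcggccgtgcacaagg
Mt1 promoter: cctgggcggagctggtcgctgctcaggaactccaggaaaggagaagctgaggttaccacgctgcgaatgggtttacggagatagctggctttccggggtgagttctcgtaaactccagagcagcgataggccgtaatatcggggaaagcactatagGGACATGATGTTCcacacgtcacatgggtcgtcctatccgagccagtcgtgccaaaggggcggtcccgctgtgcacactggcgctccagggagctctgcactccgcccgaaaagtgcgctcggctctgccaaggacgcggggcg

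Among clock genes, 4 that encode repressors were called higher. In this feedback loop CLOCK and BMAL1 drive period and cryptochrome genes through E-boxes, and the products repress their own drive. All 18 clock genes reached 5 CPM, 4 were called higher (22.2%, against 7.85% of all genes) and 0 lower. The median log2 fold was 0.32. With the trend removed it was 0.30, and 6 of the 18 were called higher, against 3.45% of all genes. Ciart, a repressor of CLOCK-BMAL1, stood at 7.65 against 21.3 CPM (2.79-fold, 2.30 to 3.40), and the runs did not overlap (6.87 to 8.23 against 18.2 to 27.2 CPM). Per2 had 24.6 against 60.1 CPM (2.44-fold, 2.19 to 2.73). The basic helix-loop-helix repressors Bhlhe41 and Bhlhe40 had 42.8 against 90.9 CPM (2.12-fold) and 100.1 against 175 CPM (1.75-fold). The other period and cryptochrome genes were not called, with folds of 1.39 for Per1, 1.52 for Per3, 1.28 for Cry1 and 0.972 for Cry2, though Per1 and Per3 were called with the trend removed. The output gene Dbp did not pass, at 35.1 against 48.2 CPM (1.37-fold, 1.24 to 1.52). At 12 months the list's median was -0.10, and at 24 months 0.30. No label gives the hour at which the animals were killed. E-boxes, searched as CACGTG, occurred in 5 of 16 clock promoters matched and in 8.09% of all. Ciart is shown since it holds 3, in capitals, beginning at positions -116, -58 and -44 (chr3:95882179-95882478, minus strand).
Ciart promoter: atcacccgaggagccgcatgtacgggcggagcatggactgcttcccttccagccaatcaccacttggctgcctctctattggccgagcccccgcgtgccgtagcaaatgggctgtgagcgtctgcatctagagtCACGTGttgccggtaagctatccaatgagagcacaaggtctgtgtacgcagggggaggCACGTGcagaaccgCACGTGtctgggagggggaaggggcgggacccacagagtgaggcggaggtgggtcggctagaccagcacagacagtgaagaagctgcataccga

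Immediate early genes, which neurons switch on within minutes of activity, were called in both directions. Of 24 genes, 17 had folds above 1 and 23 reached 5 CPM. Of these, 2 were called higher (8.70%) and 1 lower (4.35%), shares near the 7.85% and 5.34% of all genes. The median log2 fold was 0.35. The median was 0.39 with the trend removed, and 5 were called higher and 1 lower. Egr1 stood at 132 against 216 CPM (1.63-fold, 1.55 to 1.71), and Klf4 at 2.28 against 5.03 CPM (2.21-fold). Jun, a subunit of AP-1, was lower, at 57.8 against 30.6 CPM (0.530-fold, 0.475 to 0.591). Its usual partner Fos did not pass (15.2 against 23.4 CPM, 1.54-fold, 1.32 to 1.80).

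Neuropeptide genes were among the genes called higher, and pituitary hormone genes among those called lower. The marker lists of the hypothalamus (1 called higher and 1 lower of 4) and of the striatum (1 and 2 of 13) went both ways. Of 40 neuropeptide genes, 32 were tested and 21 reached 5 CPM. Of these, 6 were called higher (28.6%, against 7.85% of all genes) and 2 lower (9.52%, against 5.34%). The median log2 fold of 0.29 became -0.057 with the length and GC trend removed, when Cartpt was the only neuropeptide called higher (4.45-fold). Cartpt lies on chromosome 13 (99898489 to 99901091, minus strand), and its runs gave 9.62 to 13.9 CPM in wild type and 59.4 to 69.7 CPM in Csa-/-. Nts, which encodes neurotensin, had 5.08 against 16.4 CPM (3.22-fold, 2.56 to 4.08), and Pmch, which encodes the feeding peptide melanin-concentrating hormone, 20.6 against 49.3 CPM (2.39-fold, 2.12 to 2.7). Tac1, the precursor of substance P, had 25.1 against 49.3 CPM (1.97-fold), Npy, a feeding peptide also found in cortical interneurons, 44.1 against 81.2 CPM (1.84-fold), and Vip 28.8 against 50.7 CPM (1.76-fold). Vgf, a granule protein gene induced by neurotrophins, was lower at 140.2 against 84.9 CPM (0.606-fold). A cyclic AMP response element, TGACGTCA, occurred in 4 of 31 neuropeptide promoters matched (Cartpt, Sst, Ucn and Scg2) and in 2.03% of all. That of Cartpt is shown as the gene of this list with the largest fold, with the element in capitals at position -112 (chr13:99900634-99900933, minus strand).
Cartpt promoter: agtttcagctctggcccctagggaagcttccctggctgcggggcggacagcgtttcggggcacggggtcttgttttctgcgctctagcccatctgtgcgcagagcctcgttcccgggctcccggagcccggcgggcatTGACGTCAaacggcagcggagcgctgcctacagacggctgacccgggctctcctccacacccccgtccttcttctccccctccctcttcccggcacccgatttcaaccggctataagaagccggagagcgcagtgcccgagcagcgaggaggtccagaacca

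Pituitary and choroid plexus transcripts were lower together. The pituitary hangs from the base of the brain, and the choroid plexus lies in its ventricles. All 4 pituitary markers with at least 5 CPM were called lower: Pomc, the precursor of ACTH (11.2 against 2.08 CPM, 0.186-fold, 0.123 to 0.271), the growth hormone gene Gh (616 against 221 CPM, 0.359-fold), the prolactin gene Prl (96.7 against 43.7 CPM, 0.452-fold) and Cga, the common hormone alpha subunit (14.9 against 7.59 CPM, 0.509-fold). The summed level of the pituitary list was 745 CPM in wild type and 278 CPM in Csa-/-. Of 13 choroid plexus markers at 5 CPM or more, 4 were called lower (30.8%, against 5.34% of all genes) and 0 higher. The summed level of that list was 1456 against 661 CPM. Ttr, the carrier of thyroid hormone in cerebrospinal fluid, gave 584 to 622 CPM in the wild-type runs and 251 to 276 CPM in the Csa-/- runs (0.439-fold, 0.423 to 0.455). Enpp2, the lysophosphatidic acid-producing enzyme autotaxin, had 692 against 300.4 CPM (0.434-fold), Kl, which encodes klotho, 33.9 against 14.3 CPM (0.422-fold), and the coagulation factor gene F5 11.6 against 3.62 CPM (0.311-fold). The calls held with the trend removed, with folds of 0.166 for Pomc, 0.274 for Gh and 0.271 for Ttr. The amount of pituitary and choroid plexus in each brain was not tested.

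Nuclear genes of oxidative phosphorylation were higher as a group. The respiratory complexes pass electrons from NADH and succinate to oxygen and pump protons, which drive the ATP synthase, complex V. Of 75 genes with at least 5 CPM, 29 were called higher (38.7%, against 7.85% of all genes) and 0 lower, and 64 of 75 folds were above 1. The median log2 fold was 0.55, but the genes are short (median 1718 exonic bases, against 4768 for all genes at 5 CPM or more), and it was 0.18 with the trend removed, with 14 called higher and 2 lower. At 24 months it was -0.68.

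Complex I had 12 of 36 genes called higher and a median of 0.55. Ndufb2 gave 77.2 to 92.2 CPM in the wild-type runs and 224 to 283 CPM in the Csa-/- runs, a fold of 3.06 (2.89 to 3.23), and Ndufa1 stood at 4.85 against 14.5 CPM (2.99-fold). Complex II had none of its 4 genes called, and Sdha, its flavoprotein subunit, stood at 382 against 374 CPM (0.98, 0.946 to 1.01). Complex III had 4 of 9 called, among them Uqcrh (133 against 266 CPM, 1.99-fold). Complex IV had 6 of 11, with a median of 0.73, among them Cox7c (32.8 against 80.8 CPM, 2.46-fold) and Cox6c (119 against 264 CPM, 2.22-fold). Complex V had 7 of 15 called. Length and GC content were matched for 13 of these 15 genes, and the others kept their measured folds when the trend was removed. The median was then 0.51, and the 7 called genes remained the same. They included Atp5g2 and Atp5l (13.9 against 35.8 CPM, 2.57-fold, 2.22 to 2.97). With the trend removed, Ndufb2 (2.68) and Cox6c (1.91) were still called, and Ndufa1 (1.54), Uqcrh (1.26) and Cox7c (1.17) were not.

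Ribosomal protein genes moved likewise. Of 75 with at least 5 CPM, 24 were called higher (32.0%, against 7.85% of all genes) and 0 lower. The median was 0.60, or 0.21 with the trend removed, when 12 were called higher and 2 lower. The large subunit had 14 of 43 called, with Rpl37a (4.85 against 16.8 CPM, 3.48-fold) and Rpl19 (22.2 against 77.0 CPM, 3.47-fold, 3.11 to 3.87) in front. The small subunit had 10 of 32, with Rps27l (8.08 against 24.0 CPM, 2.97-fold) and Rps25 (79.5 against 219.5 CPM, 2.76-fold, 2.60 to 2.93). Ribosomal protein genes have many processed copies in the genome, so the counts of single genes are uncertain. Of 31 proteasome genes, 6 were called higher (19.4%, against 7.85% of all genes) and 0 lower. Their median of 0.35 was 0.13 with the trend removed, when 1 was called higher and 1 lower. Psmb1, a subunit of the catalytic ring, stood at 158 against 339 CPM (2.15-fold, 2.13 with the trend removed).

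Small nucleolar RNAs of the C/D box class, which guide methylation of ribosomal RNA, stood out among the largest folds, and the group was drawn together after their values were seen. Of 74 Snord genes in the table, 59 were tested and 33 reached 5 CPM. Of these, 31 were called higher (93.9%, against 7.85% of all genes) and 0 lower. The median log2 fold was 1.56 and the median length 79 bases. Snord47 had 34.7 against 165 CPM (4.76-fold, 4.38 to 5.18), Snord32a 26.0 against 120.0 CPM (4.62-fold) and Snord34 12.3 against 52.8 CPM (4.29-fold). With the trend removed the median was 0.11, and 3 were called higher and 1 lower. The trend was fitted on genes at 5 CPM or more, these RNAs included, and few other genes are so short. Their own folds thus shape it at this length, and a median near 0 does not show that length accounts for them. At 24 months the median was -0.80. These RNAs carry no poly(A) tail and lie in introns of other genes, so their counts may hold reads of the host transcripts.

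**Figure D4:**
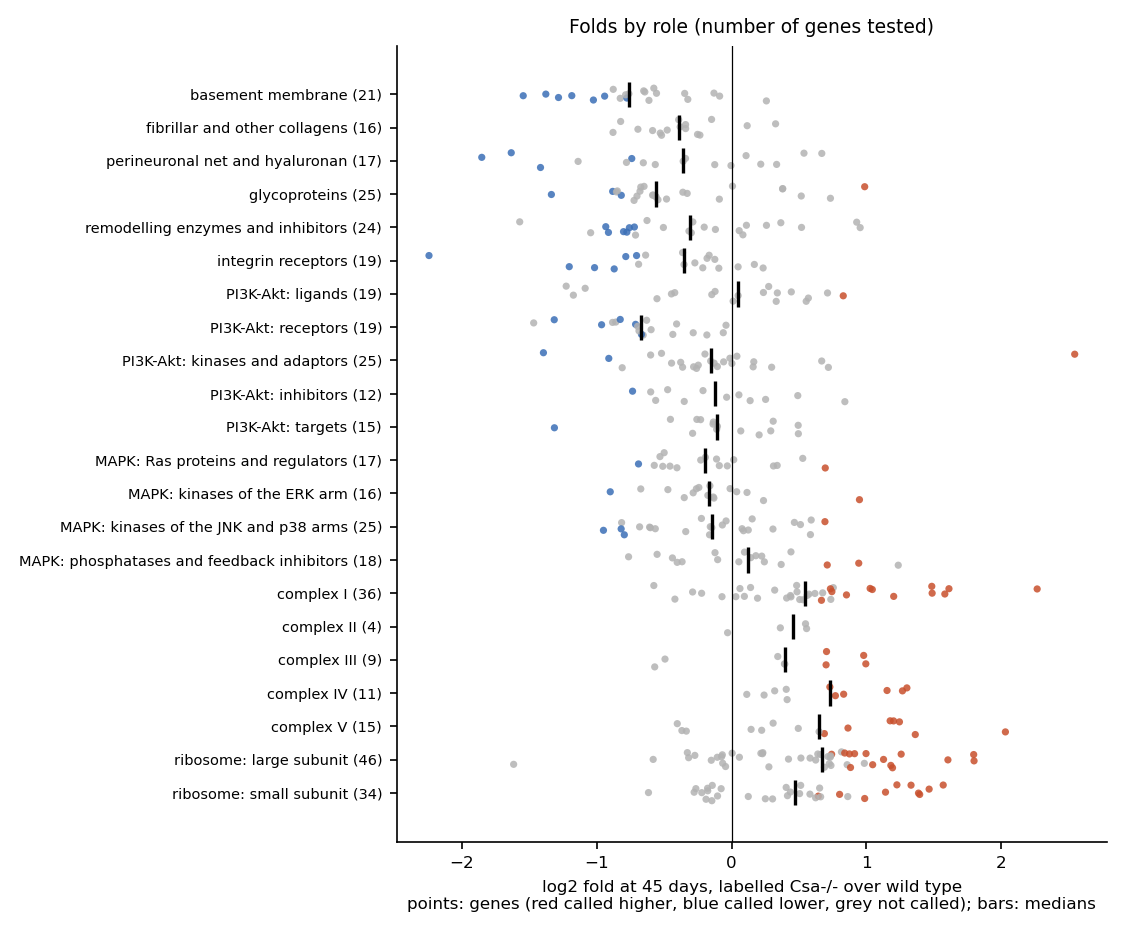
Log2 fold at 45 days (horizontal axis) of each gene tested in the matrix, PI3K-Akt, MAPK, oxidative phosphorylation and ribosome lists, by role, with the number of genes in brackets, called genes in red (higher) or blue (lower), others in grey, and black bars at the medians. Complex IV has the median farthest right of these roles (0.73) and the basement membrane the one farthest left (-0.76).

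Genes of the extracellular matrix were lower, with exceptions by role. The brain's matrix consists of basement membranes around vessels, perineuronal nets of proteoglycans around neurons, and little fibrillar collagen. Of 103 matrix genes with at least 5 CPM, 26 were called lower (25.2%, against 5.34% of all genes) and 1 higher, and 97 of 122 tested had folds below 1. The median log2 fold was -0.54. The genes are long (median 6668 exonic bases), and with the trend removed the median was -0.26, with 8 called lower and 0 higher.

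Basement membrane genes had 7 of 19 called lower and the lowest median of the 6 roles, -0.76, or -0.33 with the trend removed. Hspg2, the heparan sulfate proteoglycan perlecan, gave 15.0 to 21.9 CPM in the wild-type runs and 4.04 to 7.89 CPM in the Csa-/- runs (0.343-fold, 0.271 to 0.429). The laminin chain genes Lama2 (19.3 against 7.92 CPM, 0.411-fold), Lamb2 (28.5 against 14.0 CPM, 0.491-fold) and Lama5 (24.4 against 12.7 CPM, 0.521-fold) were lower too, and Lama2 was the only basement membrane gene still called with the trend removed (0.533). Collagen IV did not pass, with Col4a1 at 60.3 against 40.4 CPM (0.670, 0.607 to 0.739). None of 16 fibrillar and other collagen genes was called, and their median of -0.39 became 0.01.

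Perineuronal net genes had 4 of 14 called lower. Tnr, which encodes tenascin-R, the protein that cross-links the net, had 84.0 against 27.1 CPM (0.322-fold, 0.288 to 0.359). Of its ligands, the lecticans, Acan at 11.1 against 4.16 CPM (0.374-fold) and Ncan at 203 against 121 CPM (0.599-fold) were called lower. The lectican genes Bcan (372 against 290 CPM, 0.780-fold) and Vcan (0.635-fold) were not called. Tnr (0.403), Acan (0.490) and Cspg4 (0.466) were still called with the trend removed. Among 22 glycoprotein genes 3 were called lower, with Fmod, the collagen-binding fibromodulin, at 19.7 against 7.79 CPM (0.396-fold) and Reln, the signal that places neurons, at 137 against 74.2 CPM (0.543-fold). Ccn2, a matricellular growth factor gene, was the 1 matrix gene called higher (11.2 against 22.2 CPM, 1.98-fold, 1.67 to 2.35).

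Genes of remodelling enzymes and their inhibitors had 6 of 16 called lower and 0 higher. Of these 6 calls, 1 held with the trend removed. The membrane-bound collagenase gene Mmp14 stood at 33.6 against 17.9 CPM (0.531-fold), and Adamts1, an aggrecan- and versican-cutting protease, at 17.4 against 9.13 CPM (0.524-fold, and 0.545 with the trend removed). Integrin receptor genes also had 6 of 16 called lower. Below Itgb8 came the collagen-binding subunit Itga1 (6.65 against 2.89 CPM, 0.434-fold) and its relatives down to Itgav, the alpha partner of Itgb8 (99.1 against 60.8 CPM, 0.613-fold, 0.567 to 0.664). Of these 6, Itgb8 alone was called with the trend removed, and the integrin median of -0.35 was then -0.40.

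PI3K-Akt signalling carries growth factor signals from receptor tyrosine kinases through PI3K and Akt to growth and survival. Of 77 genes with at least 5 CPM, 2 were called higher (2.60%, against 7.85% of all genes) and 9 lower (11.7%, against 5.34%). The median log2 fold was -0.19. Removal of the trend gave a median of -0.09, with 2 called higher and 4 lower. The difference was uneven by role. Ligands had 1 of 12 called, with Pdgfa at 30.6 against 54.3 CPM (1.78-fold, 1.6 to 1.97). Receptors had 5 of 17 called lower, all 19 tested had folds below 1, and their median of -0.67 was -0.46 with the trend removed. They were the vascular endothelial growth factor receptor gene Kdr (19.7 against 7.92 CPM, 0.402-fold), the platelet-derived growth factor receptor genes Pdgfrb (27.5 against 14.1 CPM, 0.513-fold) and Pdgfra (57.5 against 32.4 CPM, 0.564-fold), the neuregulin receptor gene Erbb4 (94.2 against 57.5 CPM, 0.610-fold) and Ntrk2, the receptor of BDNF. Ntrk2 gave 686 to 702 CPM in the wild-type runs and 422 to 448 CPM in the Csa-/- runs (0.629-fold, 0.611 to 0.648). The genes of the insulin and IGF1 receptors were not called (Insr 0.881, Igf1r 0.972). Kdr and Erbb4 were the 2 receptors called with the trend removed (0.483 and 0.606).

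Downstream, 23 kinases and adaptors included 1 gene called higher, Sgk1, and 2 lower. Pik3r2, a regulatory subunit of PI3K, stood at 110.2 against 41.9 CPM (0.380-fold, 0.347 to 0.415, and 0.505 with the trend removed), and Rptor, the scaffold of the mTOR complex that senses nutrients, at 113 against 59.9 CPM (0.532-fold). Of 11 inhibitors Phlpp1, an Akt phosphatase, was lower (0.601-fold). Of 14 targets Foxo3, the transcription factor that Akt keeps out of the nucleus, was lower (36.1 against 14.5 CPM, 0.402-fold, 0.344 to 0.468).

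MAPK genes gave 5 higher and 5 lower of 74 at 5 CPM or more, shares of 6.76% each, which lie near those of all genes, and a median of -0.13 (-0.04 with the trend removed). Of Ras proteins and their regulators, Nras was higher (78.2 against 127 CPM, 1.62-fold) and the exchange factor gene Rasgrf1 lower (467 against 289 CPM, 0.620-fold). In the ERK arm the kinase gene Araf was higher (178 against 343 CPM, 1.93-fold, 1.85 to 2.01) and the ribosomal S6 kinase gene Rps6ka2 lower (0.536-fold). In the stress arms the p38-beta gene Mapk11 was higher (63.3 against 102 CPM, 1.62-fold) and Map3k10, a mixed-lineage kinase gene, lower (192 against 99.3 CPM, 0.517-fold). The feedback inhibitors Dusp14 (26.4 against 50.7 CPM, 1.92-fold) and Spry2 (76.3 against 125 CPM, 1.63-fold) were higher. Araf (1.86) and Mapk11 (1.68) were the only members called with the trend removed.

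Inflammatory genes were few at this depth. Of 46 genes, 40 were tested and 19 reached 5 CPM. Of these, 3 were called higher (15.8%, against 7.85% of all genes) and 1 lower (5.26%, against 5.34%). The median log2 fold was 0.11 (0.07 with the trend removed, and -0.186 among the genes with at least 20 CPM). Casp1, the protease of the inflammasome, had 2.90 against 6.38 CPM (2.2-fold, 1.58 to 3.09), the alarmin gene Il33 29.3 against 49.7 CPM (1.69-fold), and Nfkbia, the inhibitor of NF-kappaB, 23.6 against 40.3 CPM (1.71-fold). The cytokine co-receptor gene Il6st, which encodes gp130, was lower (82.7 against 46.0 CPM, 0.557-fold). None of the 4 was called with the trend removed.

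Of 28 interferon genes at 5 CPM or more, 3 were called higher (10.7%, near the 7.85% of all genes) and 0 lower. Of 52 tested, 37 had folds above 1. Rtp4, an interferon-induced chaperone of receptors, stood at 2.14 against 6.71 CPM (3.14-fold, 2.19 to 4.57), and the transcription factor genes Irf9 and Irf3 at 9.83 against 18.2 CPM (1.85-fold) and 24.5 against 43.0 CPM (1.76-fold). These 3 calls held with the trend removed. The median of 0.47 was 0.27 with the trend removed and -0.088 among the genes with at least 20 CPM. Antigen presentation was split, with 2 genes of 13 called higher (15.4%) and 1 lower (7.69%), against 7.85% and 5.34% of all genes. The median was 0.11, or 0.20 with the trend removed, when 0 were called higher and 1 lower. B2m, the light chain of class I molecules, was higher (39.3 against 99.4 CPM, 2.53-fold, but 1.22 with the trend removed), and the peptide transporter gene Tap2 lower (8.36 against 2.42 CPM, 0.289-fold). The complement list had 1 gene called of 10, C1qa (17.2 against 30.7 CPM, 1.78-fold), and 0 with the trend removed. The receptor adaptor gene Tyrobp was the 1 called among 10 markers of activated microglia (6.94 against 14.8 CPM, 2.13-fold), a list whose median of 0.38 was -0.046 with the trend removed, when 0 were called. Of 9 reactive astrocyte markers 0 were called.

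Genes of excitatory transmission were lower where they were called. Of 48 glutamate genes 6 were called lower (12.5%, against 5.34% of all genes) and 0 higher. The genes are long (median 8397 exonic bases), and their median of -0.42 was -0.14 with the trend removed. Called lower were the NMDA receptor genes Grin1 (303 against 177 CPM, 0.583-fold, 0.557 to 0.610) and Grin2d (23.3 against 10.9 CPM, 0.470-fold), and 4 postsynaptic scaffold and kinase genes, among them Shank3 (247 against 140.5 CPM, 0.569-fold) and Camk2b (707 against 382 CPM, 0.540-fold). None of the 6 was called with the trend removed, when 1 other gene of the list was called lower. Of 24 GABA genes 1 was called higher (4.17%, against 7.85% of all genes) and 3 lower (12.5%, against 5.34%). Gabra6, the receptor subunit of cerebellar granule cells, was higher (186 against 372 CPM, 1.99-fold). The vesicular transporter gene Slc32a1 was among those lower (121 against 73.8 CPM, 0.612-fold). Removal of the trend left 0 GABA genes called higher and 1 lower, none of them among these 4.

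Monoamine and acetylcholine genes had 5 of 33 called lower (15.2%, against 5.34% of all genes) and 0 higher, with a median of -0.23. Removal of the trend again gave 5 called lower, 3 of them shared, and a median of -0.29. The noradrenaline transporter gene Slc6a2 had 5.56 against 2.28 CPM (0.411-fold, 0.272 to 0.606), the serotonin transporter gene Slc6a4 8.46 against 4.09 CPM (0.484-fold), and the muscarinic receptor gene Chrm2 9.55 against 3.42 CPM (0.359-fold, 0.299 with the trend removed). Ion channel genes, also long (median 8720 exonic bases), had 6 of 49 called lower (12.2%, against 5.34% of all genes) and 0 higher, with 46 folds below 1. Their median was -0.39 (-0.17 with the trend removed, when 1 was called). The T-type calcium channel gene Cacna1i (122 against 61.4 CPM, 0.503-fold) and the potassium channel gene Kcnh1 (121 against 64.0 CPM, 0.529-fold) had the lowest folds of their roles.

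Nucleotide excision repair, the pathway of Csa itself, had 5 of 34 genes at 5 CPM or more called higher (14.7%, against 7.85% of all genes) and 0 lower, with a median of -0.10. With the trend removed none of the 5 was called, 2 others were called lower, and the median was -0.03. In the transcription-coupled branch 3 of 10 genes were called higher. Of these, Hmgn1, a nucleosome-binding protein that CSA recruits to stalled polymerase, stood at 16.4 against 30.5 CPM (1.86-fold), and Tcea1, the elongation factor TFIIS, at 34.8 against 61.0 CPM (1.75-fold). Ccnh, the cyclin of the TFIIH kinase, had 33.8 against 86.4 CPM (2.56-fold, 2.33 to 2.81). Uvssa, which brings TFIIH to the stalled polymerase, stood at 17.5 against 21.0 CPM (1.20, 1.03 to 1.40), and the damage sensor gene Xpc at 22.4 against 15.3 CPM (0.684, 0.581 to 0.803). Of 20 p53 target genes 3 were called higher (15%, against 7.85% of all genes) and 1 lower (5%, against 5.34%). With the trend removed, 2 were called higher and 1 lower. Gadd45a, a growth arrest gene, stood at 3.52 against 10.9 CPM (3.09-fold, 2.34 to 4.13) and the sestrin gene Sesn1 at 65.4 against 114 CPM (1.74-fold). The p53 target Cdkn1a, which encodes p21, did not pass (17.7 against 24.9 CPM, 1.41, 1.22 to 1.63). Of 19 genes of chaperones and the unfolded protein response, Atf4 was higher (184 against 328 CPM, 1.78-fold) and Hsp90ab1 lower (1257 against 772 CPM, 0.614-fold), and both were still called with the trend removed.

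Markers of the cell types of the brain differed by type. Of 12 neuronal markers 5 were called lower (41.7%, against 5.34% of all genes) and 1 higher, and the median log2 fold was -0.55. After removal of the trend 3 were called lower and 0 higher, and the median was -0.29. Called were the neurofilament gene Nefh at 108 against 47.1 CPM (0.436-fold) and the tubulin gene Tubb3 at 188 against 105 CPM (0.557-fold), but Stmn2, a growth cone protein gene, at 384 against 635 CPM (1.66-fold). Of 14 oligodendrocyte markers 2 were called higher (14.3%, against 7.85% of all genes) and 1 lower (7.14%, against 5.34%). The myelin gene Mobp was higher, at 2689 against 4157 CPM (1.55-fold), while Mbp (1.13) did not pass. After removal of the trend 1 oligodendrocyte marker was called higher and 3 lower, and the median moved from -0.02 to -0.19. Precursor markers had 3 of 10 called lower (30%, against 5.34% of all genes) and 0 higher, with a median of -0.27. They were Cspg4, Pdgfra and Gpr17 (106 against 58.5 CPM, 0.554-fold). Cspg4 alone was called with the trend removed, and the median was -0.12. The endothelial list had 2 of 13 called higher (15.4%, against 7.85% of all genes) and 3 lower (23.1%, against 5.34%). With the trend removed 1 was called higher and 3 lower. The junction genes Cldn5 (28.6 against 12.4 CPM, 0.431-fold) and Cdh5 (11.0 against 5.37 CPM, 0.487-fold) were lower and the surface antigen genes Ly6c1 (2.51-fold) and Ly6a (2.62-fold) higher. The last pair has close copies in the genome, so these counts are uncertain. Of 12 astrocyte markers 1 was called higher (8.33%, against 7.85% of all genes) and 0 lower, and 8 folds were below 1. Their median was -0.38, or -0.25 with the trend removed, when 0 were called. The 1 called was S100b (313 against 599.8 CPM, 1.91-fold, 1.32 with the trend removed), and Aqp4 stood at 230.1 against 235 CPM (1.02). Cell numbers were not measured, and their part in the differences above was not tested.

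**Figure D5:**
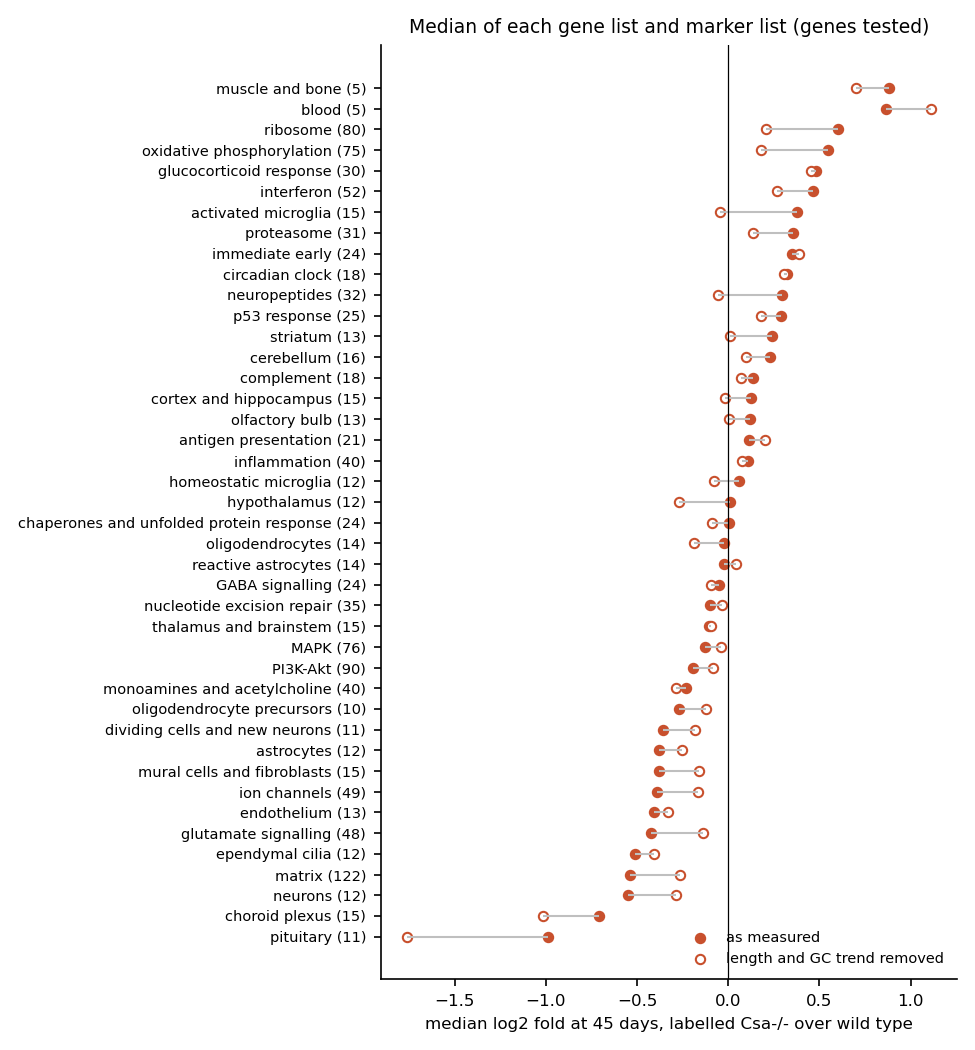
Median log2 fold at 45 days (horizontal axis) of each gene list and marker list, with the number of genes tested in brackets, as measured (filled) and with the trend over exonic length and GC content removed (open). The glucocorticoid, clock and immediate early lists keep their medians (0.48 and 0.45 for the first), the ribosome and oxidative phosphorylation lists shrink toward 0, and the pituitary and choroid plexus lists lie farthest left.

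Most of the differences at 45 days were not found at the later ages. Of the 981 genes called higher, 70 (7.14%) were called higher at 12 months, which is 15.2% of the 460 called there, and 36 were called lower. At 24 months 42 (4.28%) were called higher and 151 (15.4%) lower. Of the 667 called lower, 9 were called lower and 27 higher at 12 months, and 37 lower and 131 higher at 24 months. Of all genes, 5.80% were called at 12 months and 21.0% at 24 months, 3.71% higher and 2.09% lower at 12 months and 11.0% and 9.98% at 24 months. The 45-day Csa-/- library stood above all 5 other libraries of the series for 856 of the 981 genes and below all of them for 541 of the 667, while the 45-day wild-type library was itself at the extreme for 411 and 325. These genes were chosen by a large difference between the 45-day libraries, which favours extreme ranks of both. The share of all genes with such ranks was not computed, so the counts do not show which library is unusual. The difference between ages was not tested, since each rests on 1 library per genotype.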

How the data were processed

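The authors deposited raw counts per gene as whole numbers, in 1 table of 25239 genes and 30 columns. Poly(A) RNA of ground brains was made into SOLiD libraries and sequenced 5 times per sample, per the labels' protocols. Trimmomatic 0.3.9, HISAT2 2.2.1, SAMtools, Subread 2.0.1 and mm10 are named in the submitters' processing notes. The annotation, the strand setting and the rule for reads that match several genes were not given in the sources used here. Each column's name matched 1 sample.

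Runs were summed to 6 libraries, because the chi-square of their counts per degree of freedom had a median under 2 in every group. The 45-day runs held 2671390 to 4641173 counts. edgeR 4.0.16 (R 4.3.3) gave TMM factors and, with filterByExpr, 16560 genes. Folds carried exact 95% Clopper-Pearson intervals. List medians are over genes that passed filterByExpr, and a library under 3 counts was set to 3. Lengths, GC content and coordinates came from GENCODE M21 (mm10), with 98.5% of genes at 5 CPM or more matched, and promoters from RefSeq GRCm38.p6. The trend was a spline over exonic length and GC content, and genes without a match kept their measured folds. The calling was tested on simulated data. No gene set test was run, and p-values (adjusted, threshold 0.05) served only to count calls in the edgeR and DESeq2 alternatives below.

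The compared samples and the gene lists were chosen with earlier results of these data known. Named genes were Ercc8, the 12 largest called folds in each direction with at least 10 CPM, up to 6 called members per role, the member of the highest level where none was called, and all glucocorticoid genes. Genes named beyond it, such as Fos, Dbp, Col4a1, Insr, Igf1r, Uvssa, Xpc, Snap25, Mbp and Aqp4, were chosen for their role after the values were seen. Only part of the genes that this rule allows is named, and some results are not reported here. Alternatives were other scalings (2-library TMM, DESeq2 1.42.0 size factors, totals, without the 10 top genes), filters, a 2-fold bound, trend removal, each run left out, and edgeR and DESeq2 on the 10 runs.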

Additional observations from a re-analysis of the deposited data

Results flagged for a closer look

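A number of genes were called in 1 direction at 45 days and in the other at a later age. The difference between ages was not tested, since each fold rests on 1 library per genotype. All folds below are of the Csa-/- library over wild type.

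Higher at 45 days and lower at 24 months were the neuropeptide genes Cartpt (0.555), Npy (0.505) and Pmch (0.113, and 0.587 already at 12 months), and the respiratory genes Ndufb2 (0.565), Ndufb4 (0.338), Uqcrh (0.527) and Cox6c (0.626). The ribosomal protein gene Rps25 (0.571), the nucleolar RNAs Snord32a (0.348) and Snord34 (0.55), and the regulators Atf4 (0.633), Irf3 (0.480) and Mapk11 (0.524) did the same. Egr1 was higher at 45 days and lower at 12 months (0.597).

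Lower at 45 days and higher at 24 months were the matrix and integrin genes Tnr (2.99), Reln (2.11), Itgb8 (3.25), Itga1 (1.99) and Itgav (2.29), the signalling genes Erbb4 (2.38), Foxo3 (2.21), Rasgrf1 (1.61) and Il6st (1.92), the muscarinic receptor gene Chrm2 (3.38) and the choroid plexus gene F5 (2.52).

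Lower at 45 days and higher at 12 months were the pituitary genes Pomc (71.9), Gh (9.26), Prl (5.78) and Cga (9.63), the choroid plexus gene Ttr (2.04), the neurofilament gene Nefh (1.67), and the transporter genes Slc6a2 (12.0) and Slc6a4 (4.25) of noradrenergic and serotonergic neurons. So were Foxj1 of motile cilia (2.38) and the glycine genes Slc6a5 (4.17, and 4.72 at 24 months) and Glra1 (2.30, and 2.09 at 24 months). Pomc stood at 0.427 CPM in wild type and 30.7 CPM in Csa-/- at 12 months.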

How the results depend on the processing

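Of 1648 genes called, 981 were higher and 667 lower. A 2-fold bound left 334 (243 higher and 91 lower), with the higher share at 72.8% against 59.5%. Removal of the length and GC trend left 753 (431 and 322). DESeq2 on the 10 runs, which counts sequencing runs as replicates, called 935 (582 and 353). Leaving out 1 run of each library gave 1509 to 1561 calls, 906 to 939 higher and 603 to 635 lower. The other scalings, filters and the removal of short gene models (chosen after the data were seen) kept each total within 1.5 times the main count. The deviations of same-numbered runs correlated weakly, at 0.0458 to 0.141. Differently numbered runs were not set beside them, so whether the numbers pair the runs was not tested. edgeR on the 10 runs called 1585 genes without and 1642 with the replicate block.

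Medians of 5 lists changed sign from a value larger than their spread between runs. With at least 20 CPM they were -0.088 for interferon, 0.087 for monoamines and acetylcholine, -0.25 for activated microglia and 0.56 for dividing cells and new neurons. With the trend removed they were -0.057 for neuropeptides and -0.046 for activated microglia. Medians within that spread changed sign too, with -0.186 for inflammation (from 0.11) at 20 CPM and, with the trend removed, -0.27 for hypothalamus, -0.089 for chaperones, -0.076 for homeostatic microglia, -0.02 for cortex and hippocampus and 0.04 for reactive astrocytes. Those of chaperones, hypothalamus, reactive astrocytes and oligodendrocytes, close to 0, also crossed it under a scaling, the 20 CPM minimum or with 1 run left out. Depth limits genes near 5 CPM, and the intervals hold no variation between animals.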

Other observations

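Markers of brain regions did not move as whole lists. Of all genes, 7.85% were called higher and 5.34% lower. The lists are small, so a share that rests on 1 or 2 genes is uncertain. Of 15 cortical and hippocampal markers at 5 CPM or more 1 was called lower and 0 higher, and their summed level was 1895 CPM in wild type and 1649 CPM in Csa-/-. Cerebellar markers had 2 called higher and 1 lower of 14 (median log2 fold 0.23, 0.10 with the trend removed). Neurod1, a transcription factor of granule cells, stood at 86.6 against 217 CPM (2.51-fold, 2.36 to 2.65). Of 9 thalamic and brainstem markers 2 were called lower and 0 higher. They were the glycine transporter gene Slc6a5 (15.0 against 4.56 CPM, 0.304-fold, 0.230 to 0.396) and the glycine receptor gene Glra1 (0.456-fold). The olfactory bulb list had 2 of 7 called higher, Eomes and Doc2g (1.84-fold), and the ependymal list 1 of 4 lower, Foxj1, the master regulator of motile cilia (19.9 against 9.46 CPM, 0.476-fold).

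Markers of tissues outside the brain had low levels. Here 1 call of 2 genes is too few to set against the 7.85% of all genes called higher. The blood list had 2 genes at 5 CPM or more, and S100a8, a neutrophil gene, was the 1 called higher (5.52-fold). The muscle and bone list also had 2, with the skeletal actin gene Acta1 called higher (1.84-fold). The summed levels of these lists were 17.9 and 25.3 CPM for blood and 19.0 and 27.9 CPM for muscle and bone.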
